A study of Mus musculus with 34 samples.

Results

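The genes described here are the DNA replication and G1/S module, a set of 43 genes that build, load, drive, and supply the DNA replication machinery or control entry into S phase. Members were taken from a list of symbols, and each was represented by its RefSeq transcript with the highest mean level over the 14 RNA-Seq libraries, out of 23109 genes in the deposited tables. The list was drawn up by gene function. All 43 were found, and all had an RPKM above 0 in every library. RPKM scales the reads of a transcript to its length and to the total mapped in that library. It does not remove shifts of the median gene between libraries. Set against the mean of the 14 libraries, these shifts ran from -0.20 to 0.20 on the log2 scale, so some ratios are also given after rescaling.

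Before a cell copies its DNA, the origin recognition complex, *Cdc6*, and *Cdt1* load the Mcm2-7 helicase onto origins in G1. At the start of S phase *Cdc45* and the GINS complex join the helicase, primase and polymerases begin synthesis, and the clamp *Pcna* and its loader keep the polymerases on the template. Many of these genes are transcribed by E2F factors once cyclin-dependent kinases inactivate the Rb proteins. Confluent preadipocytes given an adipogenic cocktail are known to go through a limited round of division, called clonal expansion, before they leave the cell cycle and mature.

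The study asked how depletion of H3K36 methylation affects adipogenesis. The cells were brown preadipocytes from the interscapular brown fat of newborn C57BL/6J pups, immortalized with SV40T, a viral oncogene whose large T product binds Rb proteins, so that control of E2F genes in them can differ from that in primary cells. The first experiment compared cells with retroviral WT or K36M mutant histone H3.3 before induction (D0), after 2 days of a cocktail of insulin, T3, IBMX, dexamethasone, and indomethacin (D2), and on day 7 (D7), insulin and T3 being kept on after D2. In the second, WT and K36M cells that also expressed retroviral PPARγ were kept sub-confluent and given DMSO or rosiglitazone (Rosi), a ligand of PPARγ, and the third compared cells with a lentiviral control shRNA (Ctrl) or an *Nsd2* shRNA (KD) at D0 and D2. The labels describe all 14 samples as GR-flox/flox cells, with Vec or Cre used to make WT or GR KO cells, whereas the study's methods describe cells of newborn WT mice, and the labels of these samples do not say which vector they received. The labels also give the DMSO samples a time of 0 and the Rosi samples a time of 24 h, whereas the study describes 24 h with either. If the labels hold, the ligand and 24 h of culture cannot be told apart.

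Each condition had 1 library, so no difference between conditions has a replicate check and no p-value was computed. Whole reads could be recovered from the RPKM, and the intervals given with ratios are 95% counting intervals of the reads of the libraries compared. Such an interval holds the error of counting alone, so it sets 1 library beside another and says nothing of the spread of a condition. Mapped reads ranged from 12213559 to 24365867 per library, and the lowest read number of a member in any library was 49. In bulk RNA a smaller share of cycling cells and less of a transcript per cell cannot be told apart. *Nsd2* itself had an RPKM of 19.9 in Ctrl and 5.85 in KD cells at D0, and of 29.04 and 7.01 at D2, as the KD label states. The adipocyte genes *Cebpa* and *Fabp4* reached 232 and 2644 RPKM in WT cells at D7, whereas *Ucp1* and *Cidea*, which define brown fat, stayed at or below 0.194 and 0.0973 in all 14 libraries. The 5 immune markers found were at or below 0.165 RPKM, of 5 endothelial markers only *Tek* passed 1 (up to 2.08), and of 6 muscle markers only *Des* (up to 3.84) and *Acta1* (0.237 to 67.5) did. Markers of preadipocytes and of adipocytes moved with the comparisons made here. The summed RPKM of 6 preadipocyte and fibroblast markers was 849.7 in WT cells at D0, 89.4 at D2, and 743 on day 7, and 458, 258, and 1053 for K36M. From D0 to D2 it went from 2329 to 162 in Ctrl and from 483 to 50.01 in KD cells. All 6 were over 2-fold lower in WT cells at D2 than at D0 (median -2.69), against 17.3% of all genes. In KD against Ctrl cells 5 of 6 were over 2-fold lower at both D0 (median -2.15) and D2 (median -3.22), against 10.8% and 9.57% of all genes. On each day 1 of the 6 went the other way and was over 2-fold higher in KD cells, at a log2 ratio of 2.17 at D0 and 2.99 at D2. Of 9 brown adipocyte markers, 7 were over 2-fold lower in KD than in Ctrl cells at D2 (median -4.22), against 9.57% of all genes. In K36M against WT cells at D7, 7 of the 8 above 0 were over 2-fold lower (median -3.77), against 8.46% of all genes. What part these differences in marker levels have in the levels of the replication genes was not tested.

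E2F factors bind short sites in the promoters of many members, and the RefSeq promoters (250 bases before to 50 after each start site, build GRCm38.p6) were therefore searched for TTTCCCGC, TTTGGCGC, TTTGCCGC, and TTTCGCGC on both strands. Of the 43 members, 35 had 41 promoters in the table, and 14 of these promoters (34.1%) held at least 1 of the 4 motifs, against 2.26% of all 32851 promoters of the same length. CCAAT or its complement ATTGG, an element also frequent in cell cycle promoters, was in 58.5% of the members' promoters and 37.4% of all. A match describes the letters only. *Mcm4*, *Gins1*, *Gins2*, *Gins4*, *Prim2*, *Pole*, *Rfc2*, and *Ccne2* had no entry. The 5 windows printed here lie upstream of the start site, read 5′ to 3′ on the gene's strand, with every listed motif in the window in capitals. They are shown because the first 3 genes passed 2-fold between K36M and WT cells at D0, being higher in K36M, and the last 2, with the same kind of motif, did not. In *Mcm5* and *Mcm6* a motif and the complement of another overlap, so that the capitals run over 12 bases.
Cdc6, chr11:98907983-98908052, plus strand: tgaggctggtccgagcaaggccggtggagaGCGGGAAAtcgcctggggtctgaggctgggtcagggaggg
Mcm5, chr8:75109326-75109395, plus strand: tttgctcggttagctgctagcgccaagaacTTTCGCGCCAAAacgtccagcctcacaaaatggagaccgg
Mcm7, chr5:138172009-138172078, minus strand: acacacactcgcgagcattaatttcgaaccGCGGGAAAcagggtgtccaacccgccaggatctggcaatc
Mcm6, chr1:128359776-128359845, minus strand: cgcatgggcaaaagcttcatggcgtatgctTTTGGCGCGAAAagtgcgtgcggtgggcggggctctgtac
Pola1, chrX:93632254-93632323, minus strand: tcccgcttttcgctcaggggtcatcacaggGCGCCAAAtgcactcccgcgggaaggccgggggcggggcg

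Members with an E2F motif were not uniformly higher or lower than those without. For WT cells between D0 and D2 the median log2 ratio was 0.11 for the 14 members with a motif and 0.55 for the 21 whose promoters held none. For K36M against WT at D0 the medians were 0.83 and 0.62, and for *Nsd2* KD against Ctrl at D2 they were 0.52 and 0.33. These medians are descriptions, and the members of each set share the same libraries.

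The geometric mean RPKM of the 43 genes was lowest in WT cells at D0, at 14.97, and highest in KD cells at D2, at 33.5. In WT cells it was 19.9 at D2 and 22.6 at D7, and the K36M libraries gave 25.6, 22.97, and 19.6 on the 3 days. In cells with PPARγ it was 23.01 with DMSO and 18.9 with Rosi for WT, and 21.4 and 19.3 for K36M. Ctrl cells had 20.97 and 25.2 at D0 and D2, and KD cells 23.3 at D0. The WT D0 library held the lowest of 14 values for 24 members, against 4.75% of all genes whose RPKM reached 1 throughout. The KD D2 library held the highest of 14 for 26 members, against 10.8%. The module was thus at its lower end in 1 library of preadipocytes and at its upper end in 1 library of induced cells, and the other 12 lay between.

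**Figure D1:**
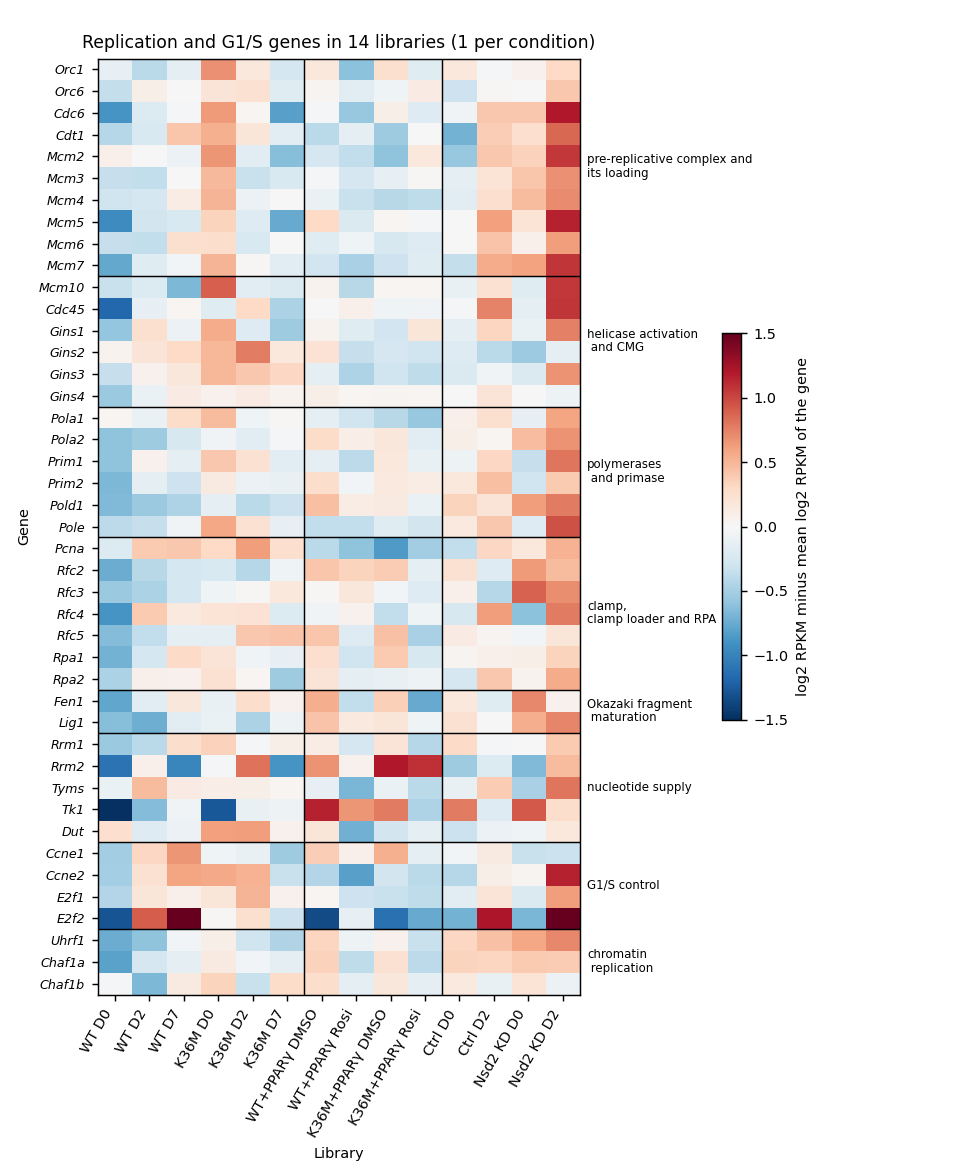
Rows are the 43 genes ordered by role and columns the 14 libraries, with vertical lines between the 3 experiments. Colour gives log2 RPKM minus the gene's mean log2 RPKM over the 14 libraries. The WT D0 column is mostly blue, with 24 of 43 genes at their lowest, and the *Nsd2* KD D2 column mostly red, with 26 at their highest.

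In WT cells the module was higher after induction than before it, and it was not lower again at D7. From D0 to D2, 5 members (11.6%) were over 2-fold higher and 0 over 2-fold lower, against 9.38% and 17.3% of all genes whose RPKM reached 1 in either library. The 5 were *Cdc45*, *Rfc4*, *Rrm2*, *Tk1*, and *E2f2*. The counting interval lay above 1 for 28 (65.1%) of the members and below 1 for 4 (9.302%), against 36.6% and 39.8% of all such genes. The median member was 1.35-fold its D0 level, a log2 ratio of 0.44, beside -0.011 for all genes. Such all-gene medians are over genes above 0 in both libraries whose RPKM reached 1 in either. From D2 to D7, 1 member (2.33%) was over 2-fold higher and 1 (2.33%) over 2-fold lower, against 15.7% and 5.08% of all genes whose RPKM reached 1 in either library, the first being *E2f2* and the second *Rrm2*. By the counting interval, 19 (44.2%) members were higher and 6 (13.95%) lower, against 38.5% and 32.2% of all such genes. The median log2 ratio was 0.18, beside 0.040 for all genes. D7 was the highest of the 3 WT libraries for 30 of 43 members, against 27.8% of all genes. From D0 to D7, 6 members (13.95%) were over 2-fold higher and 0 over 2-fold lower, against 11.5% and 8.9% of all genes whose RPKM reached 1 in either library, and the 6 were *Cdc45*, *Rfc4*, *Tk1*, *Ccne1*, *Ccne2*, and *E2f2*. Beyond counting error, 39 (90.7%) members were higher and 3 (6.98%) lower, against 35.2% and 36.2% of all such genes. Read against the background, the shares over 2-fold higher from D0 to D2 and from D0 to D7 were near that of all genes, and fewer members than genes in general were over 2-fold lower. The shares higher beyond counting error, from D0 to either later day, were above the background. The background genes were not matched to the members for read number, on which the width of an interval depends.

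In K36M cells the module ran the other way, from a high level at D0 to a lower one at D7. From D0 to D2, 1 member (2.33%) was over 2-fold higher and 1 (2.33%) over 2-fold lower, against 10.2% and 11.2% of all genes whose RPKM reached 1 in either library, the former being *Tk1* and the latter *Mcm10*. Intervals lay wholly above 1 for 8 (18.6%) members and below 1 for 24 (55.8%), against 32% and 41% of all such genes. The median log2 ratio was -0.20, beside -0.071 for all genes. From D2 to D7, 0 members were over 2-fold higher and 1 (2.33%) over 2-fold lower, against 15.7% and 7.02% of all genes whose RPKM reached 1 in either library, the latter being *Rrm2*. The counting interval lay above 1 for 7 (16.3%) of the members and below 1 for 22 (51.2%), against 39% and 30.3% of all such genes. The median was -0.19, beside 0.066 for all genes. Over the whole course, 1 member (2.33%) was over 2-fold higher and 5 (11.6%) over 2-fold lower, against 14.5% and 7.8% of all genes whose RPKM reached 1 in either library. *Tk1* was again higher, and *Cdc6*, *Mcm2*, *Mcm5*, *Mcm10*, and *Gins1* were lower. By the counting interval, 5 (11.6%) members were higher and 30 (69.8%) lower, against 39.4% and 33.6% of all such genes. Over the whole course the share over 2-fold lower was near the background, the share over 2-fold higher was below it, and the share lower beyond counting error was above it. D0 was the highest of the 3 K36M libraries for 26 members, against 36.9% of all genes.

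The courses of WT and K36M cells thus differed in direction for most of the module, although no test of this is possible with 1 library each. The difference of the log2 ratios of D2 to D0 between K36M and WT cells had a counting interval below 0 for 35 members and above 0 for 1, against 34.7% and 30.4% of all genes whose RPKM reached 1 in the 4 libraries. For D2 to D7 it lay below 0 for 29 and above 0 for 2, against 26.2% and 29%. For D0 to D7 the numbers were 41 and 0, against 30.7% and 35.3%, and the median over the 43 differences was -0.92.

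**Figure D2:**
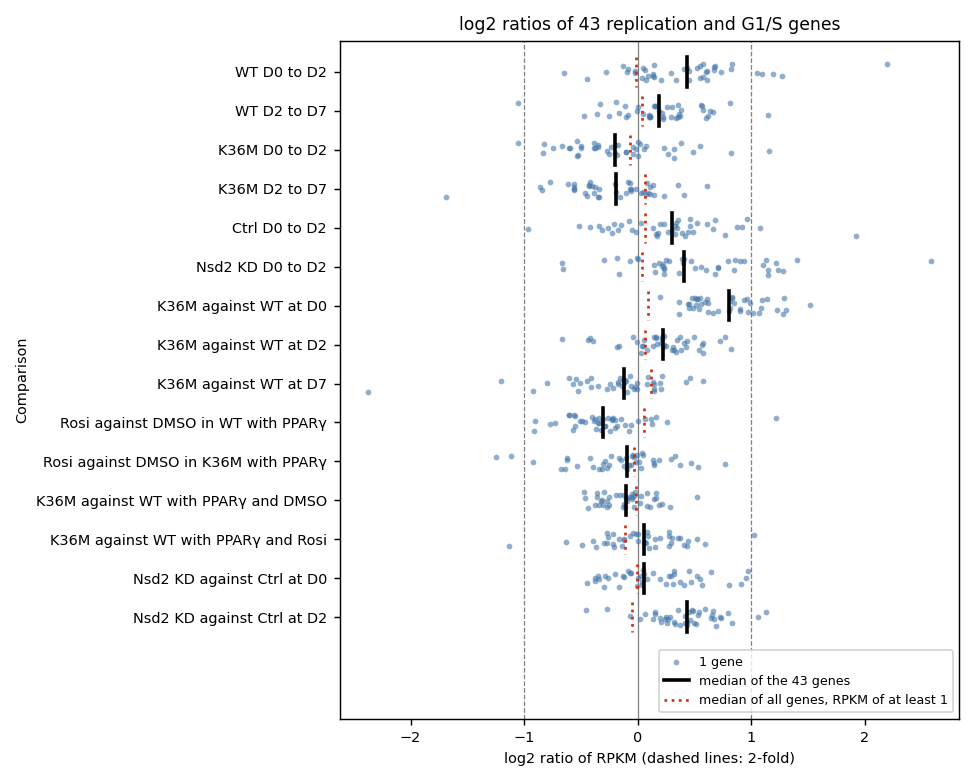
Each row is a comparison, each blue point the log2 ratio of RPKM of 1 of the 43 genes between 2 libraries, and the black bar their median. The red dotted bar is the median of all genes above 0 in both libraries whose RPKM reached 1 in either. The genes of K36M against WT at D0 all lie above 0, with a median of 0.81, and the median for Rosi in WT cells lies at -0.30.

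Before induction the K36M library had more of every member than the WT library. At D0, 10 members (23.3%) were over 2-fold higher and 0 over 2-fold lower, against 5.02% and 6.36% of all genes whose RPKM reached 1 in either library. The 10 were *Cdc6*, *Mcm5*, *Mcm7*, *Mcm10*, *Gins1*, *Prim1*, *Rfc4*, *Rrm2*, *Ccne2*, and *E2f2*. Beyond counting error, 43 members were higher and 0 lower, against 40% and 26% of all such genes. The ratios ran from 0.20 to 1.52 on the log2 scale with a median of 0.81, beside 0.090 for all genes. At D2, 0 members were over 2-fold higher and 0 over 2-fold lower, against 11.2% and 4.37% of all genes whose RPKM reached 1 in either library, and the median was 0.23, beside 0.066. Intervals lay wholly above 1 for 29 (67.4%) members and below 1 for 5 (11.6%), against 37% and 27.5% of all such genes. At D7, 0 members were over 2-fold higher and 2 (4.65%) over 2-fold lower, against 11.7% and 8.46% of all genes whose RPKM reached 1 in either library, these being *Ccne1* and *E2f2*, and the median was -0.12, or -0.22 after rescaling by the median gene, which moved all ratios here by 0.10. The counting interval lay above 1 for 5 (11.6%) of the members and below 1 for 19 (44.2%), against 40.5% and 25.3% of all such genes. These comparisons use the same 6 libraries as the courses over time and are not independent of them.

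The D0 difference was smaller against the Ctrl D0 library than against WT D0. Ctrl cells at D0 were also preadipocytes before induction, and beside the WT D0 library they had 4 members over 2-fold higher and 0 lower, against 7.1% and 15.1% of all genes. The counting interval lay above 1 for 33 members and below 1 for 5, against 26.2% and 51.1%. The median log2 ratio was 0.53, or 0.74 once the shift of -0.21 of the median gene was taken out. With the Ctrl D0 library in place of WT D0, K36M cells at D0 had 3 members over 2-fold higher and 1 lower, against 19% and 9.53%. The interval lay above 1 for 29 and below 1 for 9, against 53.5% and 26.4%. Their median of 0.40 was close to the shift of 0.31 of the median gene, and after rescaling it was 0.090, with 24 of 43 members higher. This comparison crosses experiments and retroviral against lentiviral vectors, and it was chosen after the WT D0 library was seen to be the lowest.

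In the third experiment the module was higher at D2 in both kinds of cells, and more so in KD cells. From D0 to D2 in Ctrl cells, 2 members (4.65%) were over 2-fold higher and 0 over 2-fold lower, against 11.3% and 16.1% of all genes whose RPKM reached 1 in either library, the 2 being *Cdt1* and *E2f2*. By the counting interval, 28 (65.1%) members were higher and 9 (20.9%) lower, against 42.2% and 36.3% of all such genes. The median log2 ratio was 0.30, or 0.19 after rescaling, which moved these ratios by 0.11. In KD cells, 9 members (20.9%) were over 2-fold higher and 0 over 2-fold lower, against 11.8% and 16.8% of all genes whose RPKM reached 1 in either library. The 9 were *Mcm10*, *Cdc45*, *Prim1*, *Pole*, *Rfc4*, *Rrm2*, *Tyms*, *Ccne2*, and *E2f2*. Beyond counting error, 34 (79.1%) members were higher and 5 (11.6%) lower, against 40.3% and 37.3% of all such genes. The median was 0.40, beside 0.039 for all genes. The difference between the KD and Ctrl log2 ratios had an interval above 0 for 27 members and below 0 for 7, against 29.4% and 31% of all genes.

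Compared directly, KD and Ctrl cells differed little in the median member at D0, and most members were higher in KD cells at D2. At D0, 0 members were over 2-fold higher and 0 over 2-fold lower, against 6.61% and 10.8% of all genes whose RPKM reached 1 in either library, and the median log2 ratio was 0.055, beside -0.0019 for all genes. Intervals lay wholly above 1 for 21 (48.8%) members and below 1 for 10 (23.3%), against 33.8% and 35.5% of all such genes. The roles differed at D0, with medians of 0.50 for the pre-replicative genes (9 of 10 higher beyond counting error), 0.44 for the 2 Okazaki fragment genes, and 0.31 for the clamp, loader, and RPA genes (4 of 7 higher). The medians were -0.035 for helicase activation, -0.23 for polymerases and primase, -0.13 for nucleotide supply, -0.014 for G1/S control, and 0.055 for chromatin replication. At D2, 2 members (4.65%) were over 2-fold higher and 0 over 2-fold lower, against 4.88% and 9.57% of all genes whose RPKM reached 1 in either library, the 2 being *Rfc3* and *Ccne2*, and 40 of 43 members were higher in KD cells. The counting interval lay above 1 for 36 (83.7%) of the members and below 1 for 2 (4.65%), against 31.9% and 37.5% of all such genes. The median was 0.43, beside -0.048 for all genes. The share over 2-fold higher was near the background, the share over 2-fold lower was below it, and the share higher beyond counting error was above it. *Prim2*, *Gins4*, and *Ccne1* were the 3 members not higher in KD cells at D2.

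**Figure D3:**
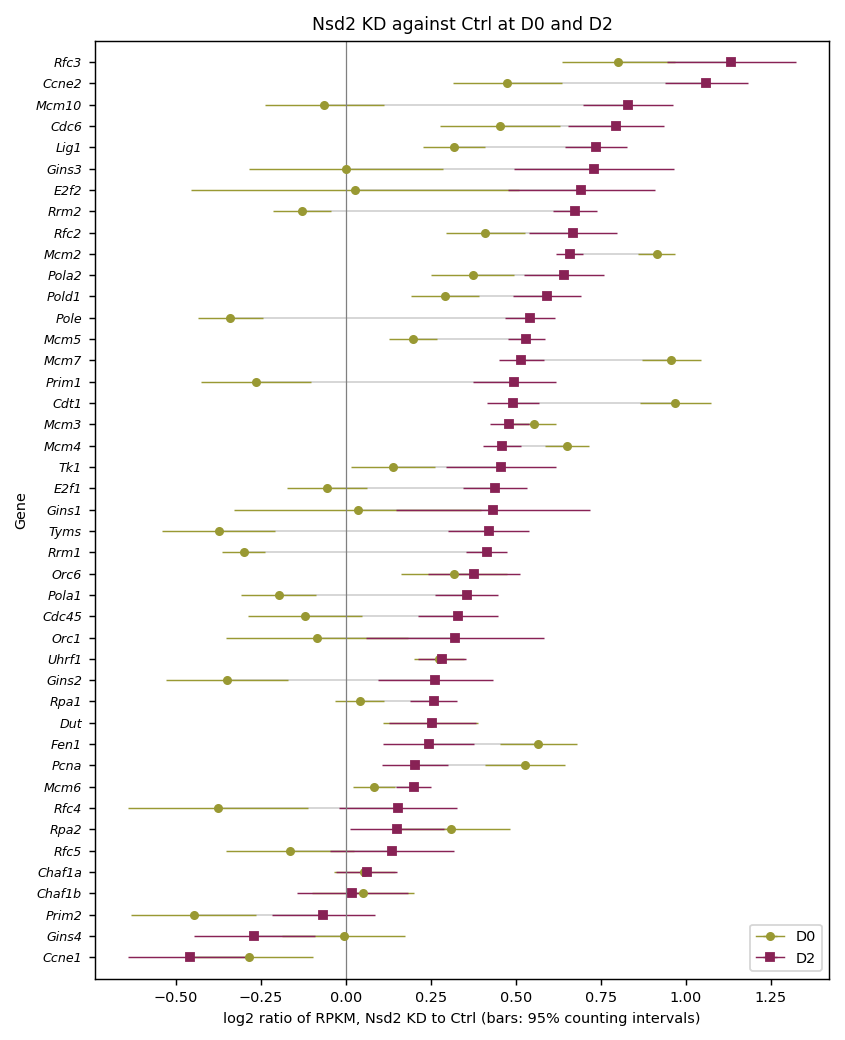
The horizontal axis is the log2 ratio of RPKM of *Nsd2* KD to Ctrl cells for each of the 43 genes, at D0 (circles) and D2 (squares), with 95% counting intervals, 1 library per condition. At D2, 40 of 43 genes lie above 0 and *Rfc3* is highest at 1.13, whereas at D0 27 lie above 0.

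With Rosi the module was slightly lower in WT cells with PPARγ and nearly level in K36M cells with PPARγ. In WT cells 1 member (2.33%) was over 2-fold higher and 0 over 2-fold lower, against 9.96% and 5.05% of all genes whose RPKM reached 1 in either library, the 1 being *E2f2*. By the counting interval, 3 (6.98%) members were higher and 33 (76.7%) lower, against 38.5% and 31.5% of all such genes. The median log2 ratio was -0.30, beside 0.057 for all genes. In K36M cells 0 members were over 2-fold higher and 2 (4.65%) over 2-fold lower, against 7.9% and 8.85% of all genes whose RPKM reached 1 in either library, these being *Fen1* and *Tk1*. Beyond counting error, 8 (18.6%) members were higher and 19 (44.2%) lower, against 31.3% and 36.8% of all such genes. The median was -0.092. The K36M minus WT difference in log2 ratio had an interval above 0 for 17 members and below 0 for 7, against 23.5% and 34.7% of all genes.

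K36M and WT cells with PPARγ, unlike those at D0 of adipogenesis, had similar levels of most members. With DMSO, 0 members were over 2-fold higher and 0 over 2-fold lower, against 5.09% and 3.11% of all genes whose RPKM reached 1 in either library, and the median log2 ratio was -0.10. Intervals lay wholly above 1 for 7 (16.3%) members and below 1 for 19 (44.2%), against 24.6% and 28% of all such genes. With Rosi, 1 member (2.33%) was over 2-fold higher and 1 (2.33%) over 2-fold lower, against 7.02% and 12.1% of all genes whose RPKM reached 1 in either library, the former being *Rrm2* and the latter *Tk1*. The counting interval lay above 1 for 14 (32.6%) of the members and below 1 for 14 (32.6%), against 27.3% and 40.3% of all such genes. The median with Rosi was 0.058, or 0.16 after rescaling, which moved these ratios by -0.10.

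Among the 10 genes of the pre-replicative complex and its loading, most levels were lower at D2 than at D0 in K36M cells, while in WT cells some were higher. Their median log2 ratio from D0 to D2 was 0.13 in WT and -0.53 in K36M cells, and that from D0 to D7 was 0.50 and -0.70. In K36M cells the counting interval lay below 1 for 9 of 10 at D2 and for 10 of 10 at D7 against D0, beside 41% and 33.6% of all genes. In WT cells it lay above 1 for 5 of 10 and below 1 for 1 at D2, beside 36.6% and 39.8% of all genes. *Mcm2* (NM_008564, chromosome 6, 88833469 to 88848774, minus strand) encodes a subunit of the Mcm2-7 helicase and had the highest mean level of the group. Positions given with transcripts are on mm9, unlike those of the promoter windows. Across the adipogenesis course *Mcm2* was measured on 3 days. At D0, D2, and D7 its RPKM was 104, 98.7, and 93.3 in WT and 158, 88.3, and 63.8 in K36M cells. Its levels in the other libraries were 83.4 in WT cells with PPARγ and DMSO, 77.2 in those with Rosi, 65.1 and 111 in their K36M counterparts, 67.1 and 131 in Ctrl cells at D0 and D2, and 127 and 207 in *Nsd2* KD cells. With *Orc1* and *Dut* it was 1 of 3 members whose highest WT value was at D0, and its KD to Ctrl log2 ratio at D2 was 0.66 (0.62 to 0.70). *Cdc6* (NM_001025779, chromosome 11, 98769115 to 98785254, plus strand) encodes the ATPase that works with the origin recognition complex to load the helicase. Its RPKM over the 3 days was 3.01, 4.84, and 5.500 in WT and 8.63, 5.67, and 3.16 in K36M cells. It was 5.48 in WT cells with PPARγ and DMSO, 3.75 in those with Rosi, 5.92 and 4.86 in their K36M counterparts, 5.37 and 7.38 in Ctrl cells at D0 and D2, and 7.36 and 12.8 in *Nsd2* KD cells. The WT and K36M courses crossed, with log2 ratios from D0 to D7 of 0.87 (0.64 to 1.10) and -1.45 (-1.69 to -1.21), and at D0 the K36M to WT log2 ratio of 1.52 (1.32 to 1.72) was the highest in the module.

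*Cdt1* (NM_026014, chromosome 8, 125091915 to 125097028, plus strand) encodes the partner of *Cdc6* in helicase loading, which is removed once S phase starts. In the adipogenesis libraries its RPKM was 32.8, 37.9, and 59.04 in WT and 64.3, 50.4, and 39.7 in K36M cells. Elsewhere it was 33.3 in WT cells with PPARγ and DMSO, 39.8 in those with Rosi, 30.5 and 44.2 in their K36M counterparts, 26.98 and 57.1 in Ctrl cells at D0 and D2, and 52.8 and 80.3 in *Nsd2* KD cells. It was over 2-fold higher at D2 in Ctrl cells, with a log2 ratio of 1.08 (0.98 to 1.18), and its KD to Ctrl ratio was wider at D0, at 0.97 (0.86 to 1.07), than at D2, at 0.49 (0.41 to 0.57). *Orc1* (NM_011015, chromosome 4, 108252028 to 108288633, plus strand) encodes the largest subunit of the origin recognition complex. Its RPKM was 3.54, 2.92, and 3.49 in WT and 6.202, 4.32, and 3.21 in K36M cells. The remaining values were 4.305 in WT cells with PPARγ and DMSO, 2.53 in those with Rosi, 4.55 and 3.41 in their K36M counterparts, 4.302 and 3.82 in Ctrl cells at D0 and D2, and 4.06 and 4.77 in *Nsd2* KD cells. It was among the least abundant members and was -0.77 (-1.08 to -0.46) on the log2 scale with Rosi in WT cells. The other helicase genes *Mcm3*, *Mcm4*, *Mcm5*, *Mcm6*, and *Mcm7* and the origin gene *Orc6* were between 20.6 and 119.5 RPKM. *Mcm5* had 24.6, 39.2, and 40.5 in WT and 59.9, 41.4, and 28.1 in K36M cells at D0, D2, and D7, so that its courses crossed like those of *Cdc6*. For *Mcm7* the D0 levels were 27.3 RPKM in WT, 66.1 in K36M, 36.2 in Ctrl, and 70.3 in KD cells. Subunits of this 1 complex thus did not share a ratio, the K36M to WT log2 ratio at D0 being 0.59 for *Mcm2*, 0.61 for *Mcm6*, and 1.29 for *Mcm5*.

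**Figure D4:**
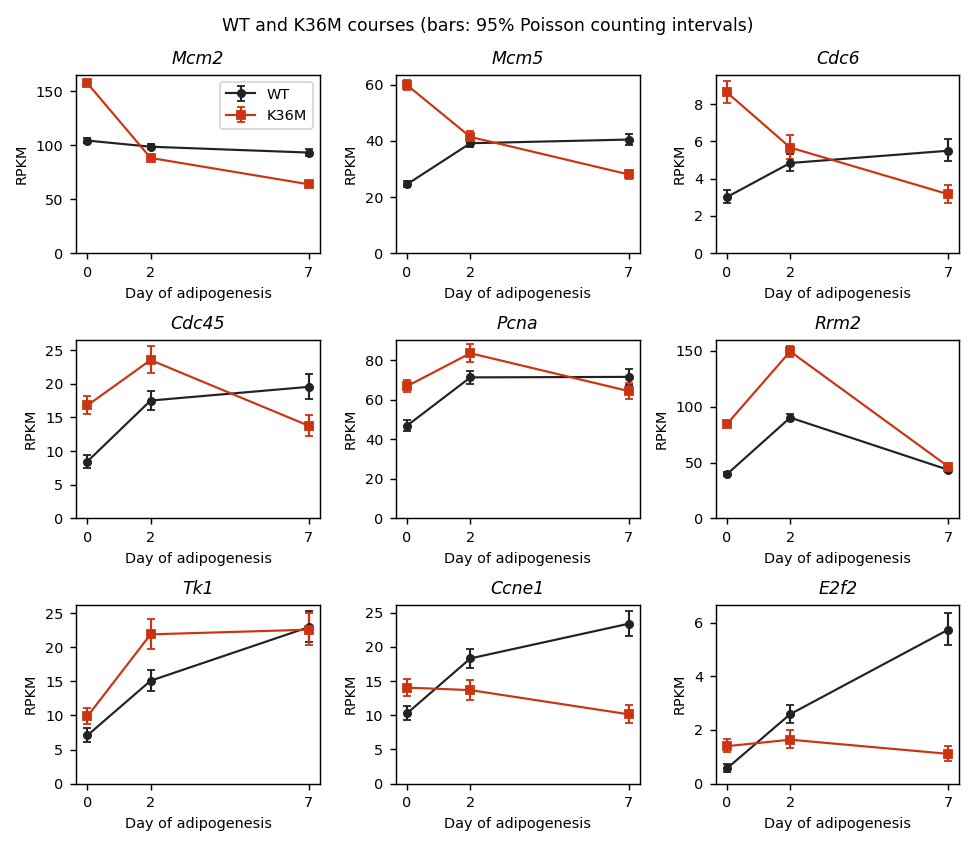
Panels show the RPKM of 9 genes on a linear axis from 0 against the day of adipogenesis, in WT (black circles) and K36M (red squares) cells, with 95% Poisson counting intervals and 1 library per point. For *Mcm5*, *Cdc6*, and *Ccne1* each later WT point lies higher and each later K36M point lower, *Rrm2* is highest at D2 in both, and *E2f2* reaches 5.74 RPKM in WT cells at D7.

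The 6 genes of helicase activation showed the same contrast less uniformly, with median log2 ratios from D0 to D7 of 0.50 in WT and -0.31 in K36M cells. *Cdc45* (NM_001161623, chromosome 16, 18780540 to 18812080, minus strand) encodes the factor that joins Mcm2-7 and GINS to form the active helicase. It had an RPKM of 8.45, 17.5, and 19.6 in WT and 16.8, 23.5, and 13.8 in K36M cells at D0, D2, and D7. Its other values were 19.2 in WT cells with PPARγ and DMSO, 20.1 in those with Rosi, 18.3 and 18.5 in their K36M counterparts, 18.7 and 31.97 in Ctrl cells at D0 and D2, and 17.3 and 40.2 in *Nsd2* KD cells. It was over 2-fold higher at D2 than at D0 in WT cells, at 1.05 (0.85 to 1.25), and in KD cells, at 1.22 (1.07 to 1.37), and 0.77 (0.63 to 0.91) in Ctrl cells. *Gins2* (NM_178856, chromosome 8, 123102533 to 123113204, minus strand) encodes a subunit of the GINS tetramer. Its RPKM was 36.7, 40.4, and 43.5 in WT and 50.1, 60.4, and 39.5 in K36M cells. In the other experiments it was 41.2 in WT cells with PPARγ and DMSO, 27.8 in those with Rosi, 29.8 and 28.9 in their K36M counterparts, 30.9 and 26.8 in Ctrl cells at D0 and D2, and 24.3 and 32.1 in *Nsd2* KD cells. It followed the module least, with its highest value in K36M cells at D2 and a correlation with the mean profile of the 43 genes, itself included, of 0.0620 over the 14 libraries. *Mcm10* (NM_027290, chromosome 2, 4910760 to 4933837, minus strand) encodes a factor that helps the assembled helicase to start. At D0, D2, and D7 it had 7.33, 8.03, and 5.78 in WT and 17.2, 8.29, and 7.97 in K36M cells. It also had 9.62 in WT cells with PPARγ and DMSO, 6.95 in those with Rosi, 9.47 and 9.45 in their K36M counterparts, 8.55 and 10.8 in Ctrl cells at D0 and D2, and 8.18 and 19.2 in *Nsd2* KD cells. K36M cells at D0 and KD cells at D2 stood apart with the highest values, and its KD to Ctrl log2 ratio was -0.064 (-0.24 to 0.11) at D0 and 0.83 (0.70 to 0.96) at D2. The GINS genes *Gins1*, *Gins3*, and *Gins4* were between 3.91 and 22.7 RPKM. *Gins1*, whose K36M D0 to D7 log2 ratio was -1.09 (-1.51 to -0.68), rested on 221 and 64 reads.

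From D0 to D2 the median of the 6 polymerase and primase genes was 0.081 in WT cells and 0.70 in KD cells. From D0 to D7 in WT cells it was 0.35, and 6 of 6 were higher beyond counting error, against 35.2% of all genes. *Prim1* (NM_008921, chromosome 10, 127452228 to 127467093, plus strand) encodes the catalytic primase subunit that lays down RNA primers. Its RPKM at D0, D2, and D7 was 17.1, 27.2, and 23.8 in WT and 34.5, 30.4, and 23.2 in K36M cells. Other libraries had 23.8 in WT cells with PPARγ and DMSO, 19.9 in those with Rosi, 28.97 and 24.1 in their K36M counterparts, 24.6 and 32.2 in Ctrl cells at D0 and D2, and 20.5 and 45.3 in *Nsd2* KD cells. Its KD level was below Ctrl at D0 and above it at D2, with log2 ratios of -0.26 (-0.43 to -0.10) at D0 and 0.50 (0.37 to 0.62) at D2. *Pole* (NM_011132, chromosome 5, 110715325 to 110766493, plus strand) encodes the catalytic subunit of the leading-strand polymerase. It had 10.6, 10.9, and 13.4 in WT and 20.8, 16.3, and 12.8 in K36M cells. Its values in the other experiments were 10.7 in WT cells with PPARγ and DMSO, 10.8 in those with Rosi, 12.3 and 11.5 in their K36M counterparts, 15.4 and 18.5 in Ctrl cells at D0 and D2, and 12.1 and 26.9 in *Nsd2* KD cells. Like *Prim1* it was lower in KD cells at D0 and higher at D2, at -0.34 (-0.44 to -0.24) and 0.54 (0.47 to 0.62), and had the largest K36M to WT ratio of this group at D2, at 0.58 (0.47 to 0.68). *Pola1* (NM_008892, chromosome X, 90550106 to 90877494, minus strand) and *Pola2* (NM_008893, chromosome 19, 5940543 to 5964206, minus strand) encode the catalytic and the regulatory B subunit of polymerase α, which extends the primers. For *Pola1* the adipogenesis values were 14.2, 12.96, and 16.9 in WT and 19.3, 13.3, and 14.01 in K36M cells. It further had 12.5 in WT cells with PPARγ and DMSO, 11.3 in those with Rosi, 10.4 and 9.38 in their K36M counterparts, 14.7 and 16.4 in Ctrl cells at D0 and D2, and 12.8 and 20.95 in *Nsd2* KD cells. *Pola2*, in contrast to its partner, was higher in KD than in Ctrl cells on both days, at 0.37 (0.25 to 0.49) and 0.64 (0.52 to 0.76). For *Pola2* the adipogenesis values were 13.5, 14.1, and 17.4 in WT and 19.7, 18.3, and 20.2 in K36M cells. The rest were 24.8 in WT cells with PPARγ and DMSO, 21.9 in those with Rosi, 23.1 and 18.2 in their K36M counterparts, 21.7 and 20.9 in Ctrl cells at D0 and D2, and 28.1 and 32.7 in *Nsd2* KD cells. *Prim2* and *Pold1*, the large primase subunit and the catalytic subunit of polymerase δ, were between 9.22 and 31.3 RPKM.

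The clamp, its loader, and the single-strand binding genes were higher in WT cells at D2 in 6 of 7 cases by the counting interval, beside 36.6% of all genes. *Pcna* (NM_011045, chromosome 2, 132074898 to 132079050, minus strand) encodes the sliding clamp that holds polymerases on DNA. It had an RPKM of 46.98, 71.4, and 71.6 in WT and 66.9, 83.6, and 64.5 in K36M cells on the 3 days. In the other libraries it had 40.9 in WT cells with PPARγ and DMSO, 35.7 in those with Rosi, 30.2 and 37.9 in their K36M counterparts, 42.02 and 67.6 in Ctrl cells at D0 and D2, and 60.5 and 77.9 in *Nsd2* KD cells. It was higher at D2 than at D0 in all 4 courses, with log2 ratios of 0.60 in WT, 0.32 in K36M, 0.69 in Ctrl, and 0.36 in KD cells. *Rfc4* (NM_145480, chromosome 16, 23114016 to 23127810, minus strand), *Rfc5* (NM_028128, chromosome 5, 117828112 to 117839056, minus strand), and *Rfc3* (NM_027009, chromosome 5, 152445331 to 152453817, minus strand) encode small subunits of the clamp loader. For *Rfc4* the values at D0, D2, and D7 were 7.96, 19.2, and 16.2 in WT and 16.9, 17.00, and 12.7 in K36M cells. It was 14.1 in WT cells with PPARγ and DMSO, 15.4 in those with Rosi, 11.4 and 13.97 in their K36M counterparts, 12.4 and 22.6 in Ctrl cells at D0 and D2, and 9.53 and 25.2 in *Nsd2* KD cells. It was over 2-fold higher at D2 in WT cells, at 1.27 (1.03 to 1.52), and in KD cells, at 1.40 (1.17 to 1.64), and 0.87 (0.67 to 1.08) in Ctrl cells. *Rfc5* had 9.05, 11.1, and 12.9 in WT and 12.8, 18.8, and 19.3 in K36M cells. Its other values were 19.1 in WT cells with PPARγ and DMSO, 12.5 in those with Rosi, 19.3 and 10.2 in their K36M counterparts, 15.5 and 14.7 in Ctrl cells at D0 and D2, and 13.8 and 16.2 in *Nsd2* KD cells. Unlike *Rfc4*, it was higher at D7 than at D0 in K36M cells, at 0.59 (0.39 to 0.78), and lower with Rosi in both WT and K36M cells, at -0.61 (-0.79 to -0.42) and -0.93 (-1.15 to -0.71). *Rfc3* had 13.2, 13.9, and 16.1 in WT and 18.6, 19.6, and 21.7 in K36M cells over the 3 days. The values of *Rfc3* elsewhere were 19.6 in WT cells with PPARγ and DMSO, 21.8 in those with Rosi, 18.9 and 16.9 in their K36M counterparts, 20.5 and 14.4 in Ctrl cells at D0 and D2, and 35.8 and 31.5 in *Nsd2* KD cells. It was higher in KD than Ctrl cells at both D0 and D2, at 0.80 (0.64 to 0.97) and 1.13 (0.95 to 1.32), the latter the highest KD ratio of the module at D2. *Rpa1* (NM_026653, chromosome 11, 75111668 to 75161826, minus strand) encodes the largest subunit of RPA, which coats single-stranded DNA. It had 32.1, 43.5, and 64.03 in WT and 59.98, 50.5, and 48.1 in K36M cells at D0, D2, and D7. It also had 62.5 in WT cells with PPARγ and DMSO, 42.4 in those with Rosi, 68.9 and 44.2 in their K36M counterparts, 53.99 and 55.2 in Ctrl cells at D0 and D2, and 55.5 and 66.03 in *Nsd2* KD cells. With Rosi it was lower in both kinds of cells, at -0.56 (-0.64 to -0.49) and -0.64 (-0.72 to -0.56). *Rfc2* and *Rpa2* were between 12.5 and 48.8 RPKM.

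Both genes of Okazaki fragment maturation were lower at D2 than at D0 in Ctrl cells. *Fen1* (NM_007999, chromosome 19, 10273622 to 10278659, minus strand) encodes the nuclease that trims flaps on the lagging strand. Its adipogenesis values were 13.4, 20.4, and 25.9 in WT and 21.2, 27.6, and 24.1 in K36M cells. It had 33.4 in WT cells with PPARγ and DMSO, 17.8 in those with Rosi, 29.4 and 13.6 in their K36M counterparts, 25.6 and 20.2 in Ctrl cells at D0 and D2, and 37.95 and 23.9 in *Nsd2* KD cells. It had its highest value in KD cells at D0 and was the lowest member in WT cells with Rosi, at -0.91 (-1.04 to -0.78), with -1.11 (-1.28 to -0.95) in K36M cells. *Lig1* (NM_010715, chromosome 7, 13862632 to 13896782, plus strand) encodes the ligase that seals the trimmed fragments. At D0, D2, and D7 it had 16.8, 15.8, and 23.5 in WT and 24.5, 18.8, and 24.9 in K36M cells. Its remaining values were 35.4 in WT cells with PPARγ and DMSO, 28.99 in those with Rosi, 29.8 and 24.99 in their K36M counterparts, 30.6 and 26.2 in Ctrl cells at D0 and D2, and 38.2 and 43.5 in *Nsd2* KD cells. Its KD to Ctrl log2 ratio was 0.32 (0.23 to 0.41) at D0 and 0.73 (0.64 to 0.83) at D2.

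Nucleotide supply held both members of wide and of narrow range, the highest value being 7.497 times the lowest for *Tk1*, 4.95 for *Rrm2*, and 1.92 for *Rrm1*. *Rrm2* (NM_009104, chromosome 12, 25393106 to 25399011, plus strand) encodes the small subunit of ribonucleotide reductase, which is made in S phase to supply deoxyribonucleotides. Its RPKM was 39.5, 90.2, and 43.4 in WT and 84.5, 149.5, and 46.3 in K36M cells. Cells with PPARγ and the third experiment had 136 in WT cells with PPARγ and DMSO, 89.3 in those with Rosi, 195 and 182 in their K36M counterparts, 58.9 and 74.1 in Ctrl cells at D0 and D2, and 53.9 and 118 in *Nsd2* KD cells. It was the sole member over 2-fold higher at D2 in WT cells, at 1.19 (1.11 to 1.27), and then over 2-fold lower at D7, at -1.06 (-1.15 to -0.96), and it was also lower at D7 than at D2 in K36M cells, at -1.69 (-1.78 to -1.60). *Rrm1*, its large partner subunit, did not follow it and went from 37.6 to 59.7 RPKM between D2 and D7 in WT cells. *Tk1* (NM_009387, chromosome 11, 117676840 to 117687406, minus strand) encodes thymidine kinase, which salvages thymidine. It had 7.07, 15.1, and 22.98 in WT and 9.86, 21.9, and 22.6 in K36M cells at D0, D2, and D7. It had 53.00 in WT cells with PPARγ and DMSO, 37.7 in those with Rosi, 40.8 and 17.2 in their K36M counterparts, 40.8 and 20.8 in Ctrl cells at D0 and D2, and 44.9 and 28.6 in *Nsd2* KD cells. WT and Ctrl cells were opposed for this gene, with D0 to D2 log2 ratios of 1.10 (0.85 to 1.34) and -0.97 (-1.12 to -0.82), their D0 levels being 7.07 and 40.8 RPKM. *Dut* (NM_023595, chromosome 2, 125072926 to 125084344, plus strand) encodes the enzyme that removes dUTP. Its values were 25.98, 19.1, and 20.6 in WT and 33.5, 33.7, and 22.8 in K36M cells during adipogenesis. In the other libraries they were 24.8 in WT cells with PPARγ and DMSO, 13.2 in those with Rosi, 18.00 and 19.9 in their K36M counterparts, 17.5 and 20.5 in Ctrl cells at D0 and D2, and 20.9 and 24.5 in *Nsd2* KD cells. At D2 its K36M to WT log2 ratio of 0.82 (0.69 to 0.95) was the highest of the module. *Tyms*, thymidylate synthase, is represented by a non-coding RefSeq transcript of the locus and was between 6.64 and 18.5 RPKM.

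The 4 G1/S regulators had the highest median of the 8 roles in WT cells from D0 to D7, a log2 ratio of 1.14, beside -0.40 in K36M cells. *E2f1* (NM_007891, chromosome 2, 154385143 to 154395628, minus strand) encodes an activating E2F transcription factor that drives S-phase genes. It had an RPKM of 22.1, 33.9, and 31.4 in WT and 34.02, 42.4, and 31.2 in K36M cells. Its other values were 30.5 in WT cells with PPARγ and DMSO, 24.1 in those with Rosi, 23.8 and 22.9 in their K36M counterparts, 26.7 and 34.1 in Ctrl cells at D0 and D2, and 25.7 and 46.2 in *Nsd2* KD cells. Its D2 level was above that at D0 in all 4 courses, by a log2 ratio of 0.32 in K36M, 0.35 in Ctrl, 0.61 in WT, and 0.84 in KD cells. *E2f2* (NM_177733, chromosome 4, 135728309 to 135751972, plus strand) encodes a related activator and was the least abundant member. At D0, D2, and D7 its RPKM was 0.562, 2.59, and 5.74 in WT and 1.39, 1.63, and 1.11 in K36M cells. Elsewhere it had 0.543 in WT cells with PPARγ and DMSO, 1.26 in those with Rosi, 0.632 and 0.817 in their K36M counterparts, 0.844 and 3.19 in Ctrl cells at D0 and D2, and 0.860 and 5.16 in *Nsd2* KD cells. WT, Ctrl, and KD cells all had more at D2, with log2 ratios of 2.20 (1.78 to 2.64), 1.92 (1.56 to 2.30), and 2.59 (2.22 to 2.97), while K36M cells gave 0.23 (-0.16 to 0.62). At D7 the K36M to WT log2 ratio was -2.37 (-2.78 to -1.99). *Ccne2* (NM_009830, chromosome 4, 11118498 to 11131926, plus strand) encodes a cyclin E, which activates Cdk2 at the G1/S boundary. Its RPKM was 9.23, 15.3, and 19.7 in WT and 19.4, 18.9, and 10.4 in K36M cells over the 3 days. It was 9.67 in WT cells with PPARγ and DMSO, 7.48 in those with Rosi, 10.8 and 9.93 in their K36M counterparts, 9.73 and 13.97 in Ctrl cells at D0 and D2, and 13.5 and 29.1 in *Nsd2* KD cells. It had its highest level in KD cells at D2, with a KD to Ctrl log2 ratio of 1.06 (0.94 to 1.18). *Ccne1* (NM_007633, chromosome 7, 38883003 to 38892553, minus strand) encodes the other cyclin E. Its RPKM was 10.3, 18.3, and 23.4 in WT and 14.03, 13.7, and 10.1 in K36M cells. Other values were 18.9 in WT cells with PPARγ and DMSO, 15.5 in those with Rosi, 21.2 and 13.3 in their K36M counterparts, 14.3 and 16.1 in Ctrl cells at D0 and D2, and 11.7 and 11.8 in *Nsd2* KD cells. The cyclins E were opposed in KD cells, *Ccne1* having a KD to Ctrl log2 ratio of -0.46 (-0.64 to -0.28) at D2, while both were lower in K36M than in WT cells at D7, at -1.21 (-1.43 to -0.99) and -0.92 (-1.10 to -0.75).

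For the 3 chromatin replication genes the highest level was 2.01 to 2.76 times the lowest. *Uhrf1* (NM_001111080, chromosome 17, 56442744 to 56462909, plus strand) encodes the protein that binds hemimethylated CpG sites behind the fork and brings in the maintenance DNA methyltransferase. It had 20.8, 22.8, and 33.8 in WT and 36.97, 28.3, and 25.5 in K36M cells at D0, D2, and D7. Its levels elsewhere were 43.2 in WT cells with PPARγ and DMSO, 33.03 in those with Rosi, 36.4 and 27.6 in their K36M counterparts, 42.9 and 47.05 in Ctrl cells at D0 and D2, and 51.9 and 57.2 in *Nsd2* KD cells. Both Ctrl and KD cells held more of it than WT cells at D0. *Chaf1b* (NM_028083, chromosome 16, 93884146 to 93906360, plus strand) encodes a subunit of CAF-1, which deposits histones on new DNA. Its values were 18.1, 11.6, and 20.4 in WT and 23.3, 14.7, and 22.4 in K36M cells. The others were 22.2 in WT cells with PPARγ and DMSO, 16.8 in those with Rosi, 20.7 and 16.8 in their K36M counterparts, 20.6 and 17.1 in Ctrl cells at D0 and D2, and 21.3 and 17.3 in *Nsd2* KD cells. It was lowest at D2 of the 3 days in both WT and K36M cells, with D0 to D2 log2 ratios of -0.65 (-0.82 to -0.47) and -0.66 (-0.85 to -0.48), and its partner *Chaf1a* had 0.55 and -0.17.

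Over the 14 libraries the members followed their own mean to different degrees. The correlation of log2(RPKM + 1) with the mean z-score of the 43 genes, each gene included in it, had a median of 0.693 and ran from 0.0620 for *Gins2* to 0.934 for *Cdc6*. *Ccne1* (0.102), *Chaf1b* (0.188), *Rrm2* (0.271), and *Tk1* (0.298) were also low. The highest value of a member was between 1.68 and 10.6 times its lowest. Of 8492 other genes with a mean RPKM of at least 5, those most like the mean were *Nup133* (0.943), a nuclear pore gene, *Clspn* (0.893), a replication checkpoint gene, *Uba2* (0.883), *Pclaf* (0.869), which encodes a Pcna-binding protein, and *Slbp* (0.856), which encodes the binding protein of histone mRNA. *Lmnb2*, *Mms22l*, *Paxip1*, *Hspa14*, and *Rfwd3* followed, from 0.841 to 0.833. These correlations are descriptions over 14 single libraries that all genes share.

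Other genes of the same pathways, from lists drawn up by function, matched the module in some comparisons and not in others. Of 29 further replication factors, 3 were over 2-fold higher and 1 lower from D0 to D2 in WT cells (median log2 ratio 0.41). Of all genes 9.38% were over 2-fold higher and 17.3% lower, so the higher share was near the background. Beyond counting error 19 of the 29 factors were higher and 2 lower, against 36.6% and 39.8%. From D2 to D7 in WT cells more of them were lower than higher, unlike in the module, with 4 higher and 13 lower beyond counting error (median -0.077), against 38.5% and 32.2% of all genes. From D0 to D2 in K36M cells 10 were higher and 9 lower beyond counting error (median 0.065), against 32% and 41% of all genes. From D0 to D7 5 were higher and 18 lower (median -0.23), against 39.4% and 33.6%. For K36M against WT at D0 4 were over 2-fold higher and 0 lower (median 0.46), against 5.02% and 6.36% of all genes. In KD cells from D0 to D2 the numbers were 7 and 1 (median 0.62), against 11.8% and 16.8%.

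Among 10 further genes of nucleotide and histone supply, 6 were over 2-fold higher and 0 lower at D2 in KD cells (median 1.02), against 11.8% and 16.8% of all genes. In Ctrl cells 0 were over 2-fold in either direction (median 0.55), against 11.3% higher and 16.1% lower of all genes. Their median from D2 to D7 in WT cells was 0.0032, and that from D0 to D7 in K36M cells -0.40. *Slbp* went from 60.1 to 123 RPKM in KD cells. Of 18 further G1/S regulators, 1 was over 2-fold higher and 2 lower from D0 to D2 in WT cells, against 9.38% and 17.3% of all genes.

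*Ccnd1*, which encodes cyclin D1, the growth factor-responsive activator of Cdk4 and Cdk6, was lower at D2 than at D0 in all 4 courses, whichever way the module went. Its RPKM in WT cells was 23.9 at D0, 1.88 at D2, and 10.2 on day 7, with 52.04, 7.97, and 25.8 for K36M. It went from 17.6 to 0.928 in Ctrl and from 20.6 to 1.21 in KD cells. In WT cells with PPARγ it was 2.898 with Rosi beside 23.7 without, and in K36M cells with PPARγ 9.61 beside 46.2. In the KD D2 library *Ccnd1* was thus low where the replication genes were high. Among the Rb family and CDK inhibitor genes, 4 of the 10 above 0 were over 2-fold higher and 0 lower from D2 to D7 in WT cells, against 15.7% and 5.08% of all genes. *Cdkn1c*, which encodes the CDK inhibitor p57, went from 2.82 at D0 to 6.79 and 44.01 RPKM in WT cells and was 2.12, 1.17, and 2.41 in K36M cells. In WT cells *Cdkn1c* and the module were therefore both higher at D7 than at D0. The module's geometric mean of 22.6 RPKM at D7 was still below that of K36M cells at D0, at 25.6.

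Genes of the next cell cycle phase went with the module in some comparisons and apart from it in others. The list of 18 G2/M genes, which encode mitotic cyclins, kinases, and spindle proteins, had a geometric mean RPKM of 29.3 in Ctrl cells at D0 and 12.4 at D2. 12 of them were over 2-fold lower and 0 higher (median log2 ratio -1.34), while the replication module had a median of 0.30. In KD against Ctrl cells at D0 13 of 18 were over 2-fold lower (median -1.23) and the module was at 0.055. In KD cells at D2, where the module was highest, the G2/M mean was 10.9. WT cells had 10.5 at D0, 10.9 at D2, and 14.2 on day 7. From D0 to D7 in WT cells the G2/M median of 0.50 was close to the 0.50 of the module. Beyond counting error 13 of 18 were higher and 2 lower, against 35.2% and 36.2% of all genes. For K36M against WT at D0 15 of 18 were higher and 0 lower beyond counting error (median 0.40), against 40% and 26%. From D2 to D7 in K36M cells 5 of 18 were over 2-fold higher and 0 lower (median 0.86). Beyond counting error 15 of 18 were higher and 1 lower from D0 to D7 in K36M cells, against 39.4% and 33.6%. Their median was 0.73, while that of the module was -0.34. For K36M against WT at D7 18 of 18 were higher beyond counting error, against 40.5% of all genes. The G2/M median was 0.63 there, and that of the module -0.12. With Rosi 9 were over 2-fold lower in K36M cells (median -1.10) and 1 in WT cells (median -0.62). In those WT cells 16 of 18 were lower and 0 higher beyond counting error, against 31.5% and 38.5% of all genes. The shares of all genes over 2-fold lower in these comparisons were 16.1% (Ctrl D0 to D2), 10.8% (KD against Ctrl at D0), 8.85% (Rosi in K36M cells), and 5.05% (Rosi in WT cells), and 15.7% were over 2-fold higher from D2 to D7 in K36M cells. The sub-confluent DMSO libraries and the Ctrl D0 library had the 3 highest G2/M means, and the D0 libraries of the 2 adipogenesis experiments differed in cell cycle genes before induction, at 10.5 in WT and 29.3 in Ctrl cells. What part this difference has in the D0 to D2 ratios was not tested.

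**Figure D5:**
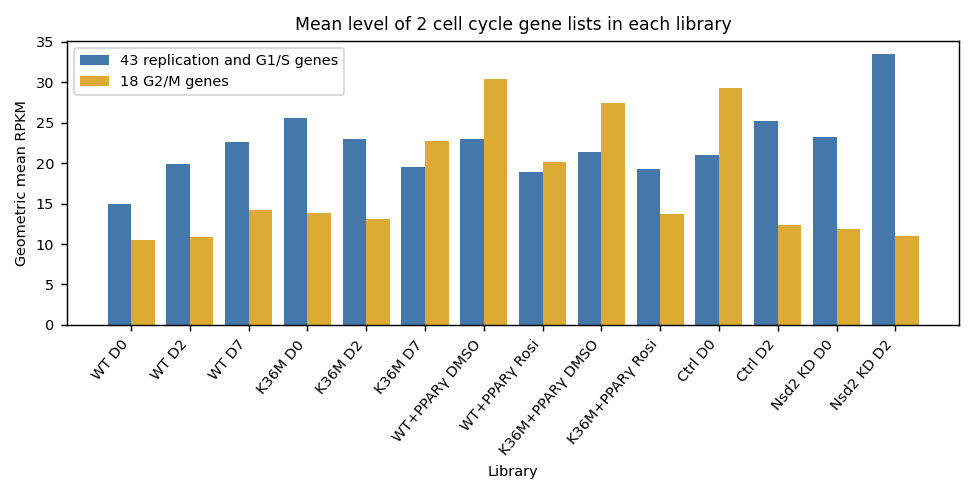
Bars give the geometric mean RPKM of the 43 replication and G1/S genes (blue) and of 18 G2/M genes (yellow) in each of the 14 libraries, on a linear axis from 0. Blue bars range from 14.97 to 33.5, and yellow bars are highest in WT cells with PPARγ and DMSO, at 30.4, and low in KD cells at D2, at 10.9.

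The 2 control courses from D0 to D2, which share no library, gave the same direction for 28 of 43 members. Of these, 25 were higher and 3 lower at D2 in both WT and Ctrl cells, and 15 differed in direction. Taken singly, 35 of 43 members were higher at D2 in WT and 30 of 43 in Ctrl cells. With so many higher in each, a shared direction for most members does not show that the courses are related. The share over all genes was not computed. Across the 43 genes, which are not independent replicates, Pearson's r of the log2 ratios was 0.458 and Spearman's rho 0.386. *E2f2* had the highest ratio in both courses, and *Tk1* had 1.10 in WT and -0.97 in Ctrl cells.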

How the data were processed

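RNA was measured by RNA-Seq of poly(A)+ RNA in 14 libraries, 1 per condition. The authors deposited RPKM per RefSeq transcript on mm9, and the RNA-Seq aligner and counter are not given in the sources used here. The submitters' processing notes name CASAVA 1.8.2, SICER, and mm9. The 20 ChIP-Seq samples of the series were not analysed here.

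Of 29082 transcripts, 28432 had a gene symbol in the tables, and each gene was represented by the transcript with the highest mean RPKM. Members and lists were chosen with earlier results of these data known. Transcripts reported by their values in every library were, per role, that with the highest mean RPKM and those with the largest absolute log2 ratio in 4 of the comparisons (WT D0 to D2, WT D2 to D7, K36M against WT at D2, KD against Ctrl at D2). *Tk1*, *Ccne1*, *Mcm5*, and *Mcm7* were given more values than this rule asks after their values were seen. From the further lists at most 5 genes over 2-fold could be named.

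Low RPKM values are whole multiples of 1 read, and whole reads and mapped totals (12213559 to 24365867) were recovered wherever a transcript was above 0 in 2 or more libraries (26946 of 26946). For 52 of these the reads were multiplied by the smallest factor that gave the transcript a whole number of bases. A call was a ratio over 2-fold. Log2 ratios of RPKM were computed with no pseudocount, and their 95% intervals are exact Clopper-Pearson intervals of the 2 read numbers given the mapped totals. Intervals of differences between log2 ratios combine the standard errors of the 4 read numbers. Both cover counting error only. Background shares were computed over genes whose RPKM reached 1, which were not matched to the members for read number. With 1 library per condition, no test between conditions was made. The calculations were tested on simulated data. The alternatives were a minimum RPKM of 1, a pseudocount of 1, rescaling by the median gene, and the mean over a gene's transcripts. The fifth was a call that needed both a ratio over 2-fold and a counting interval excluding 1. A sixth, the Ctrl D0 library in place of WT D0, was chosen after seeing the data. Python 3.11.15, numpy 2.4.6, pandas 2.3.3, SciPy 1.17.1, and matplotlib 3.10.9 were used. Promoters are RefSeq's on GRCm38.p6, matched by symbol only, and their coordinates are not combined with those of mm9.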

Additional observations from a re-analysis of the deposited data

Results flagged for a closer look

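With 1 library per condition, none of the differences given here was tested against replicate error. The first set compares K36M with WT cells over time, where the medians over the members had opposite signs, though not every member did. The median log2 ratio of the 43 genes in K36M minus that in WT cells was -0.64 from D0 to D2, -0.37 from D2 to D7, and -0.85 from D0 to D7. From D0 to D7 the single genes with opposite directions, an interval clear of 1 in both courses, and 2-fold in at least 1 of them were *Cdc6* (-2.32), *Ccne2* (-2.00), *Mcm5* (-1.81), *Ccne1* (-1.66), *Gins1* (-1.58), *Cdc45* (-1.498), and *Rfc4* (-1.44). Between D2 and D7 the gene so opposed was *E2f2*, at -1.71. The share of all genes meeting these conditions, here and in the second set, was not computed.

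The second set follows the K36M to WT ratio itself. Its median was lower by 0.93 on the log2 scale at D7 than at D0, a difference of -0.93, and the ratio in cells with PPARγ and DMSO minus that at D0 gave -0.91. In the latter, *Mcm5* (-1.55), *Gins1* (-1.48), and *Rfc4* (-1.40) met the same conditions. All of these differences with D0 rest on the WT D0 library, which had the lowest value of 14 for 24 of the 43 genes. The control courses, which share no library, were opposed for *Tk1*, whose log2 ratio from D0 to D2 in Ctrl minus that in WT cells was -2.06.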

How the results depend on the processing

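There were 51 summary values, the members over 2-fold higher, those over 2-fold lower, and the median log2 ratio in 17 comparisons. All 51 stayed within the limits set with a minimum RPKM of 1 and with the mean over transcripts. These 2 settings could change little. Only *E2f2* fell below an RPKM of 1 in any library, and 11 of the 43 members had several transcripts. With rescaling by the median gene 48 stayed within the limits, and with a pseudocount of 1 47 did. The limits were 1.5 times for a count and, for a median, the median half-width of the members' counting intervals (0.14 to 0.17 for the medians given next). Within them, rescaling moved the median of K36M against WT from -0.12 to -0.22 at D7 and from 0.058 to 0.16 with Rosi, and that of Ctrl D0 to D2 from 0.30 to 0.19, and both rescaling and the pseudocount took the members over 2-fold higher in K36M cells at D0 from 10 to 7. The 34 counts were also repeated with the counting interval required to exclude 1 in addition to the 2-fold ratio, and all 34 were within 1.5 times. With at least 49 reads per member, the interval of a 2-fold ratio seldom includes 1, so this repeat could hardly move a count. With the pseudocount, the members over 2-fold higher became 3 from D0 to D2 in WT cells, 0 from D2 to D7 in WT cells, and 0 with Rosi in WT cells, and those lower became 0 from D0 to D2 in K36M cells. With rescaling, 0 were lower from D0 to D2 in K36M cells, and 1 was higher and 1 lower from D0 to D2 in Ctrl cells. With the Ctrl D0 library in place of WT D0, an alternative chosen after seeing the data, 3 members were over 2-fold higher and 1 lower in K36M cells at D0, with a median log2 ratio of 0.40. This swap also changes the experiment and the vector, so what moved the result cannot be told apart. No paired analysis was possible because each condition had 1 library and no replicate numbers are shared, and for the same reason no replicate could be left out. The lowest read number of a member, 49, limits the precision of the scarce members, *E2f2* among them.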
